A study of Mus musculus with 30 samples.

Results

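The 10 genes described here are Rasd1, Fkbp5, Tsc22d3, Per1, Zbtb16, Nr3c1, Klf9, Sgk1, Mt1 and Mt2, which are known as targets of glucocorticoid hormones or, in the case of Nr3c1, encode their receptor. They were measured in 3T3-L1 cells, a mouse preadipocyte line that differentiates into adipocytes in culture. The genes were chosen by name, with attention to the contrast of IS (indoxyl sulfate, a putative uremic toxin) against oxLDL (oxidized low density lipoprotein) and with results of these data known. In that contrast Rasd1 was 1 of 3 genes past the threshold of all 20139 genes tested, which is 0.0149% of them. The 3 genes were Sptlc3, with a log2 fold change of 0.70, Rasd1 with -0.81, and Rasl11a with 0.84. The next 3 by p-value, just outside the threshold, were Adamts5 with -0.67, Pcyox1 with -0.37 and Tm7sf2 with 0.68. The number of genes past the threshold depended on the setting. It was 0 at a threshold of 0.05, with a replicate block or with only the groups compared, and 41 with DESeq2. Because this contrast guided the choice, Rasd1 is given as values, with no test, wherever libraries of IS or oxLDL without pNaKtide enter. All 10 genes were among the 54232 genes of the count table and all 10 passed the filter of more than 14 reads summed over the libraries.

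RNA sequencing counts were available for 30 libraries in 6 groups of 5. The groups were control cells, cells given pNaKtide (0.7 µM, a cell-permeant peptide that blocks Na,K-ATPase oxidant signaling), IS (100 µM), IS + pNaKtide, oxLDL (50 µg/mL) and oxLDL + pNaKtide. All 6 groups, controls included, were kept in adipogenic medium for 5 days, and the labels list in this medium 0.5 mM dexamethasone, a synthetic glucocorticoid, beside insulin, isobutylmethylxanthine and indomethacin. Every level below is thus a level in cells given a glucocorticoid, and no library without it was analysed here. The labels give 5 days of treatment and the study's methods a shorter one. The labels do not say whether the 5 libraries of a group came from separate cultures, so the p-values measure the spread between these libraries, which may be technical.

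Glucocorticoids cross the cell membrane and bind the glucocorticoid receptor, which waits in the cytoplasm in a complex with Hsp90 and immunophilin co-chaperones. The hormone-bound receptor moves to the nucleus, binds DNA at palindromic response elements and raises or lowers transcription of its targets. In preadipocytes the hormone is part of the cocktail that starts differentiation, and in mature adipocytes it affects lipolysis, insulin sensitivity and cytokine production. Metallothioneins respond to glucocorticoids and, through the zinc sensor Mtf1, to metals and oxidants.

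Libraries held between 6945498 and 15159877 reads on genes. On the first principal component of log2 CPM (counts scaled to library size), which held 64.4% of the variance of 12580 genes, Control replicate 1 lay at -25.8, with the other Control libraries at 6.47 to 29.9. IS replicate 4 lay at 28.2, with the other IS libraries at -36.7 to -23.2. A further 3 libraries lay apart, namely pNaKtide replicate 3 at -5.36 (others 15.9 to 36.6), oxLDL + pNaKtide replicate 4 at 67.5 (others 14.5 to 33.2) and IS + pNaKtide replicate 2 at -2.45 (others -18.5 to -15.3). Results that rest on one of the 5 are given with and without it. Leaving out both Control replicate 1 and IS replicate 4 raised the share of all genes called in IS against Control from 7.94% to 45.4%, in oxLDL against Control from 36% to 47.6% and in IS + pNaKtide against Control from 0.358% to 32.4%, so counts without them are to be read against these shares. Leaving out oxLDL + pNaKtide replicate 4 lowered the share from 34% to 22.4% in IS + pNaKtide against oxLDL + pNaKtide, from 5.2% to 2.51% in oxLDL + pNaKtide against Control and from 48.3% to 41.4% in oxLDL + pNaKtide against oxLDL. The adipocyte markers summed to between 7543 and 10899 CPM in the 30 libraries, and the endothelial markers to at most 0.613 CPM. The 5 macrophage markers summed to 3.12 to 7.56 CPM, and Ptprc and Itgam were at 0 in every library.

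Promoter sequences from RefSeq (build GRCm38.p6, windows of 300 bases around a transcription start) were matched by symbol for 7 of the 10 genes. Rasd1, Zbtb16 and Nr3c1 had none in the table. The windows were searched on both strands for a receptor element (AGAACA, any 3 bases, TGTTCT), its half-site AGAACA, and the core of the metal response element (TGCACNC or TGCGCNC). The receptor element was in 3 of 32851 windows of all genes (0.00913%), and 1 of the 6 windows of Sgk1 was among them. The metallothionein windows held 3 metal elements in Mt1 and 4 in Mt2, while 1.97% of all windows held at least 3 and 0.517% at least 4. The sequences are shown because the oxLDL results below concern these 3 genes, with the matches in capitals and each printed 5′ to 3′ on the plus strand. The receptor element half-site itself was in 19% of all windows. A match of letters is a description and not a measured binding site.
Sgk1 chr10:21993640-21993939: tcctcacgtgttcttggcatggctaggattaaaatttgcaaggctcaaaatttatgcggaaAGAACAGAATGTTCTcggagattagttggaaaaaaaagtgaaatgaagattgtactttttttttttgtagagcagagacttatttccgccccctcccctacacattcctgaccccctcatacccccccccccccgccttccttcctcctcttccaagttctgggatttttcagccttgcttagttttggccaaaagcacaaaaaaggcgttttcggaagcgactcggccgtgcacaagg
Mt1 chr8:94178839-94179138: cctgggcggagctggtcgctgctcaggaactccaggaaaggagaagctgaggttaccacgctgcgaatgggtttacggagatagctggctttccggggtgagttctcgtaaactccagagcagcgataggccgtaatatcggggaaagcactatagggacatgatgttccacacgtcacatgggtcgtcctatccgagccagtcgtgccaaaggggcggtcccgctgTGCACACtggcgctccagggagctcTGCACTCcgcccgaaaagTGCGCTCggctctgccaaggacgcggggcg
Mt2 chr8:94172368-94172667: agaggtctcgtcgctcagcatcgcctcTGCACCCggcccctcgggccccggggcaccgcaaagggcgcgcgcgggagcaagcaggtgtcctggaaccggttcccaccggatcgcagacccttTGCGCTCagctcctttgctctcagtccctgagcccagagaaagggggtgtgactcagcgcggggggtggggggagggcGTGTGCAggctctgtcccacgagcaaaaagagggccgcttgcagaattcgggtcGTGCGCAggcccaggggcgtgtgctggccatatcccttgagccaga

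In the Sgk1 window the capitals mark the receptor element at bases 62 to 76, which matched on both strands, and the window held 3 half-sites in all. In the Mt1 window the last 2 of the 3 metal elements lie past the annotated start of the gene. In the Mt2 window 2 of the 4 metal elements read on the minus strand. Among the other members, 1 of the 3 windows of Tsc22d3 and 2 more windows of Sgk1 held a half-site, and neither Fkbp5, Per1 nor Klf9 held one.

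The Rasd1 gene (ENSMUSG00000049892) lies on the minus strand at chr11:59963181-59964944 of GRCm38, and all 10 genes are protein-coding and were counted per gene. Compared per length, as FPKM (fragments per kilobase and sequencing depth, the authors' values), the metallothioneins were the most abundant of the 10 genes in control cells. Mt1 was at 432 ± 85.5 FPKM and Mt2 at 223 ± 44.5 (mean ± SD, n = 5, as for all means below). Fkbp5, an Hsp90 co-chaperone that lowers the receptor's affinity for hormone, was at 115 ± 10.5 and Tsc22d3, which encodes the anti-inflammatory protein GILZ, at 51.5 ± 8.09. Sgk1 (a serum- and glucocorticoid-regulated kinase) was at 15.4 ± 1.37 and Klf9 (a zinc finger transcription factor) at 15.1 ± 2.84, a pair that did not differ beyond their spread. Per1, a clock repressor, followed with 12.1 ± 1.01, Zbtb16, a zinc finger transcription factor, with 8.86 ± 2.48 and Nr3c1 with 7.35 ± 2.29. The ranges of Zbtb16 and Nr3c1 overlapped. Rasd1, a Ras-like GTPase known as dexamethasone-induced Ras, was lowest at 3.1 ± 0.449 FPKM, with 28 to 73 reads in a library and 1483 in all.

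Rasd1 was at a lower level in the IS libraries than in any library of 4 other groups. As TMM-scaled CPM, the scale of all library values below, the 5 Control libraries were at 4.18, 4.66, 6.11, 4.85 and 5.49, listed as replicates 1 to 5 here and throughout. The IS libraries were at 2.88, 2.81, 3.15, 2.63 and 2.56 and the oxLDL libraries at 4.8, 4.29, 5.19, 5.56 and 4.95. The highest IS library lay below the lowest Control, pNaKtide, oxLDL and oxLDL + pNaKtide library, and Control and oxLDL overlapped. The IS libraries held 46, 47, 47, 28 and 42 reads of the gene. The log2 fold change was -0.84 (SE 0.16) in IS against Control, -0.03 (SE 0.15) in oxLDL against Control and -0.81 (SE 0.16) in IS against oxLDL, which are descriptions with no test because this contrast guided the choice. Groups that did not overlap were found for 1.81% of all genes in IS against Control and for 300 genes, 1.49%, in IS against oxLDL. Without Control replicate 1 and IS replicate 4 the value against Control was -0.89, and with the trend over GC content and length (below) taken out it was -0.70. The other 9 members had log2 fold changes from -0.20 (Nr3c1) to 0.24 (Mt1) in IS against oxLDL, each with overlapping groups and also not tested.

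The same pair of agents was also compared in the groups given pNaKtide, whose libraries do not enter IS against oxLDL, although the genes were chosen with results of all 6 groups known. Rasd1 was at 3.43, 3.68, 2.6, 4.14 and 4.12 CPM in the IS + pNaKtide libraries and at 4.52, 4.12, 6.49, 4.8 and 5.13 in the oxLDL + pNaKtide libraries. The groups overlapped, with 4.14 as the highest of the first and 4.12 as the lowest of the second. Rasd1 was lower in IS + pNaKtide, by a log2 change of -0.49 (SE 0.16, edgeR quasi-likelihood test, BH-adjusted p = 0.0233). This call was lost with the trend over GC content and length out (-0.34, adjusted p = 0.118) and with scaling by library size alone (-0.31, adjusted p = 0.144). It was kept with each of the 10 libraries left out. Against Control, IS + pNaKtide had a log2 fold change of -0.49 (adjusted p = 0.151) with all libraries, although its highest library, 4.14, was below the lowest Control library, 4.18, a lack of overlap found for 3.79% of all genes. Without Control replicate 1 it was -0.55 (adjusted p = 0.0257).

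With pNaKtide alone the Rasd1 libraries were at 5.53, 5.71, 5.97, 3.53 and 3.68 CPM, a mean of 4.89 ± 1.18 against 5.06 ± 0.751 in Control. The log2 fold change of -0.04 (95% interval -0.36 to 0.27) did not pass the threshold (adjusted p = 0.992), and neither did that of oxLDL + pNaKtide against Control, 0.00 (interval -0.31 to 0.31, adjusted p = 0.9997). IS + pNaKtide stood 0.35 above IS in log2 units (SE 0.16, not tested), with overlapping groups.

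**Figure D1:**
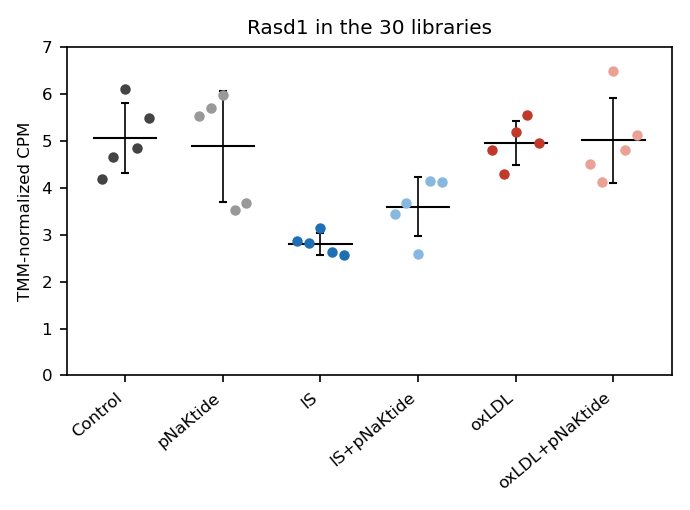
TMM-scaled CPM of Rasd1 (y axis) in the 6 groups (x axis), with 1 point for each of the 5 libraries, the mean as a line and the SD as a bar. The 5 IS libraries lie between 2.56 and 3.15 and the 5 oxLDL libraries between 4.29 and 5.56.

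The genes whose log2 CPM over the 30 libraries was closest to that of Rasd1, after each gene was centred on its own mean, were Far2, Hcar2, Dgat2, G0s2 and Ear2. Their root mean square differences from Rasd1 were 0.24, 0.25, 0.26, 0.26 and 0.27 among 12579 candidate genes, beside a root mean square of 0.37 for Rasd1 around its own mean. The likeness is therefore partial. Dgat2, an enzyme of triglyceride synthesis, had mean CPM of 201 in IS, 216 in IS + pNaKtide, 279 in Control and 261 in oxLDL. Hcar2, the niacin receptor of adipocytes, had 9.01 in IS, 11.4 in IS + pNaKtide, 11.1 in Control and 12.1 in oxLDL. G0s2, an inhibitor of adipose triglyceride lipase, had 116 in IS, 110 in IS + pNaKtide, 140 in Control and 133 in oxLDL. The libraries shared their depth and scaling across genes, so this is a description of pattern.

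Over the other members the responses fell into 3 kinds. Nr3c1, Tsc22d3, Klf9 and Sgk1 rose with oxLDL and were lower again when pNaKtide was added. Mt1 and Mt2 went the opposite way, down with oxLDL and up with pNaKtide in oxLDL cells. Nr3c1 (0.04 and -0.09) and Mt2 (-0.11 and -0.0031) lost both calls once each library's dependence on GC content and transcript length, described below, was taken out. Fkbp5 and Per1 passed the threshold in none of the 10 comparisons tested, 2 of which are differences of changes, and Zbtb16 passed it in 1. The test was edgeR's quasi-likelihood test, two-sided, with Benjamini-Hochberg adjustment over all genes and a threshold of 0.1. In oxLDL against Control 4 of 9 tested members were higher, where 18.1% of all genes were, and 2 of 9 lower, where 18% were. In oxLDL + pNaKtide against oxLDL 2 of 9 were higher and 5 lower, beside 22.1% and 26.1% of all genes. The groups did not overlap for 1 of 9 in the first comparison, as for 8.35% of all genes, and for 6 of 9 in the second, as for 28.4%. The members' median log2 fold change was 0.29 beside 0.04 over all genes in the first of these comparisons, and -0.55 beside -0.09 in the second. With the dependence on GC content and length out, the medians were 0.07 beside 0.03 and -0.21 beside -0.04. Both comparisons share the oxLDL libraries, so a value that is high in oxLDL by chance moves both. The libraries are of bulk RNA, where a change in the share of a cell type and a change in RNA per cell cannot be told apart.

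Some cell type markers were called in the same comparisons. Of the 8 adipocyte markers, Cd36 was higher and Cebpa lower in oxLDL against Control, and of the 6 preadipocyte markers Dlk1 was lower. Of all genes 18.1% were higher and 18% lower there. In oxLDL + pNaKtide against oxLDL, Adipoq and Cebpa were higher and Cd36 lower, and of the preadipocyte markers Dlk1 and Ly6a were higher and Pdgfra lower. Of all genes 22.1% were higher and 26.1% lower in that comparison. The summed preadipocyte markers ranged from 348 to 435 CPM in oxLDL and from 352 to 549.8 in oxLDL + pNaKtide, and the summed adipocyte markers from 8850 to 10899 and from 9043 to 10149. In IS against Control 1 adipocyte marker was higher, and 2 adipocyte markers and 1 preadipocyte marker lower, beside 4.45% and 3.49% of all genes. In IS + pNaKtide against oxLDL + pNaKtide 1 adipocyte marker and 1 preadipocyte marker were higher, and 3 and 2 lower. Of all genes 18.5% were higher and 15.5% lower in this last comparison. The part of the markers in the members' changes was not tested.

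Nr3c1, on chromosome 18, encodes the glucocorticoid receptor itself. Its Control libraries were at 85., 43.8, 54.1, 45.8 and 47.3 CPM and its oxLDL libraries at 79.6, 89.9, 65., 71.2 and 85.7. All oxLDL libraries lay above 4 of the 5 Control libraries, and Control replicate 1 lay among them. The receptor transcript rose by 0.50 in log2 units (SE 0.17, adjusted p = 0.0277), and by 0.72 (adjusted p = 6.57e-05) without Control replicate 1 and IS replicate 4. In oxLDL + pNaKtide it was at 52., 52.8, 44.8, 27.1 and 49.9, below every oxLDL library, a log2 change of -0.78 (SE 0.17, adjusted p = 0.000535). In IS + pNaKtide, at 72., 63.4, 78., 80.4 and 73.1, it was above every oxLDL + pNaKtide library, with 0.69 (SE 0.17, adjusted p = 0.00463). The IS libraries were at 76.5, 76.1, 70.8, 44. and 72.7, of which replicate 4 was near Control. IS against Control gave 0.30 (adjusted p = 0.257), and without Control replicate 1 0.51 (adjusted p = 0.0182) or without IS replicate 4 0.42 (adjusted p = 0.0507). The same contrast was -0.02 (adjusted p = 0.900) with the trend over GC content and length out. With the trend over GC content and length out, the oxLDL value was 0.04 (adjusted p = 0.729) and the pNaKtide value in oxLDL cells -0.09 (adjusted p = 0.318), so both calls ended, whereas the contrast of IS + pNaKtide with oxLDL + pNaKtide stayed past the threshold at 0.20 (adjusted p = 0.0182).

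Tsc22d3, a widely used readout of receptor activity, had Control libraries at 287, 204, 225, 204 and 211 CPM and oxLDL libraries at 319, 284, 294, 318 and 281. It rose by 0.40 with oxLDL (SE 0.15, adjusted p = 0.0438). This call ended without Control replicate 2 (0.37, adjusted p = 0.109) and without Control replicate 4 (0.37, adjusted p = 0.111). The oxLDL + pNaKtide libraries were at 159.8, 172, 264, 131 and 109, all below the oxLDL libraries, and the log2 fold change was -0.84 (SE 0.15, adjusted p = 7.82e-05). Replicate 3 of that group, at 264, stood above the other 4. Without it, oxLDL + pNaKtide had a log2 fold change against Control of -0.66 (adjusted p = 0.00539), while with it the value was -0.43 (adjusted p = 0.118). The IS + pNaKtide libraries, at 315, 331, 281, 281 and 293, were all above the oxLDL + pNaKtide libraries, and the difference was 0.84 (SE 0.15, adjusted p = 0.000612). Once the trend was out, this gene's changes were 0.37 in oxLDL against Control (adjusted p = 0.0808), -0.74 with pNaKtide in oxLDL cells and 0.74 between the groups given pNaKtide. In IS the libraries were at 301, 303, 326, 211 and 337, and the change against Control of 0.39 (adjusted p = 0.122) passed the threshold only without Control replicate 1 (adjusted p = 0.023), IS replicate 4 (adjusted p = 0.0155) or both (0.59, adjusted p = 0.00209) among the sets of libraries tried. That contrast was 0.35 (adjusted p = 0.167) with the trend out.

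Klf9 was at 65.4, 43.6, 51.1, 42.8 and 45.8 CPM in Control and at 66.6, 85., 55.8, 62.7 and 75. in oxLDL, where 4 Control libraries lay below every oxLDL library. The rise was 0.47 (SE 0.14, adjusted p = 0.0136). With pNaKtide in oxLDL cells the libraries were at 51.7, 49.1, 36.4, 31.5 and 46.7, all below the oxLDL libraries, and the level was 0.625 of that in oxLDL, a log2 change of -0.68 (SE 0.14, adjusted p = 0.000228). Between the groups given pNaKtide Klf9 was 0.58 higher with IS (SE 0.14, adjusted p = 0.00335), with no overlap. Without the trend these 3 values were 0.35, -0.42 and 0.36, all past the threshold (adjusted p = 0.0188, 0.000808 and 0.00627). Klf9 was also the 1 member higher in IS against Control, where 4.45% of all genes were higher. Its IS libraries were at 73.3, 67.2, 70.0, 49.1 and 66.3, and the log2 fold change was 0.39 (SE 0.14, adjusted p = 0.095). Leaving out any 1 of 8 of the 10 libraries ended this call, with adjusted p of up to 0.259, and leaving out both Control replicate 1 and IS replicate 4 gave 0.59 (adjusted p = 0.000425).

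Sgk1, a kinase of sodium transport and cell survival whose promoter window above carries the receptor element, spans chr10:21882184-21999903. Its Control libraries were at 73.5, 82.1, 75.9, 82.9 and 66.8 CPM and its oxLDL libraries at 98.7, 87.1, 92.6, 93. and 93.9, with no overlap. It rose by 0.29 with oxLDL (SE 0.0925, adjusted p = 0.0227). The oxLDL + pNaKtide libraries were at 52.5, 76., 65.1, 60.3 and 57.3, again with no overlap with oxLDL, and -0.58 in log2 units (SE 0.0935, adjusted p = 2.95e-05) had the smallest p-value of any member in the 10 comparisons. Sgk1 was the 1 member called in oxLDL + pNaKtide against Control, with a log2 change of -0.29 (SE 0.0937, adjusted p = 0.0821), beside 3.16% of all genes lower and 2.04% higher. Leaving out any 1 of 7 of the 10 libraries ended that call, with adjusted p of up to 0.225, Control replicate 1 (0.106) and oxLDL + pNaKtide replicate 4 (0.218) among them. The IS + pNaKtide libraries were at 89.2, 85.1, 68.4, 65.6 and 79.6, 0.32 above oxLDL + pNaKtide (SE 0.0935, adjusted p = 0.0129). After removal of the trend the oxLDL change was 0.26 (adjusted p = 0.0347) and the pNaKtide change in oxLDL cells -0.48 (adjusted p = 4.20e-05).

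Zbtb16, one of the most strongly glucocorticoid-induced genes in many cell types, spread widely within groups. Control libraries were at 70.1, 40.1, 43.4, 37. and 46.2 CPM, oxLDL libraries at 57.9, 70.3, 51.3, 54.9 and 67.5 and oxLDL + pNaKtide libraries at 49.7, 49.8, 26.1, 27. and 53.3. In the last group replicates 3 and 4 lay far below the other 3 libraries, and its highest library exceeded the lowest oxLDL library. Zbtb16 was lower in oxLDL + pNaKtide than in oxLDL, with a log2 change of -0.55 (SE 0.19, adjusted p = 0.0214). The oxLDL change against Control was 0.35 (SE 0.19, adjusted p = 0.171), and 0.54 (adjusted p = 0.023) without Control replicate 1, which at 70.1 CPM was far above the other Control libraries. Between the groups given pNaKtide the value was 0.38 (adjusted p = 0.143), and it passed the threshold without IS + pNaKtide replicate 2 (0.49, adjusted p = 0.0592) or without oxLDL + pNaKtide replicate 5 (0.48, adjusted p = 0.0905).

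Fkbp5, the target most used as a marker of glucocorticoid exposure, passed the threshold in no comparison. Its group means were 737 ± 64.8 CPM in Control, 769.5 ± 61.5 with pNaKtide, 796 ± 62.2 with IS, 799 ± 56.8 with IS + pNaKtide, 729 ± 31.3 with oxLDL and 731 ± 43.6 with oxLDL + pNaKtide. The groups overlapped in each comparison. The oxLDL change was -0.02 (95% interval -0.18 to 0.15, adjusted p = 0.915) and the IS change 0.11 (interval -0.06 to 0.28, adjusted p = 0.406), so a change of 0.3 or more on the log2 scale lay outside both intervals. The change with pNaKtide in oxLDL cells was 0.00, but -0.22 and past the threshold (adjusted p = 0.0218) when counts were scaled by library size alone, a scaling that moved the median of all genes in that comparison from -0.09 to -0.30. Under the same scaling Fkbp5 also passed in IS + pNaKtide against oxLDL + pNaKtide (0.31, adjusted p = 0.00437) and in IS against Control (0.22, adjusted p = 0.0888).

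Per1 was likewise not called, with group means between 61.6 ± 1.71 CPM in IS and 68.8 ± 5.88 in Control. Its log2 fold changes between 2 groups ran from -0.16 in IS against Control (adjusted p = 0.213) to 0.12 in IS + pNaKtide against IS, where the groups did not overlap, as for 0.834% of all genes, but the adjusted p was 1. Per1 had the highest GC content of the 10 genes, 59.4%. Without the trend it was -0.21 (adjusted p = 0.00901) in oxLDL + pNaKtide against oxLDL and 0.22 (adjusted p = 0.0085) between the groups given pNaKtide, both past the threshold. Scaling by library size alone also brought Per1 past it in these 2 comparisons (-0.24 and 0.30, adjusted p = 0.025 and 0.0104) and in oxLDL + pNaKtide against Control (-0.25, adjusted p = 0.0839).

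**Figure D2:**
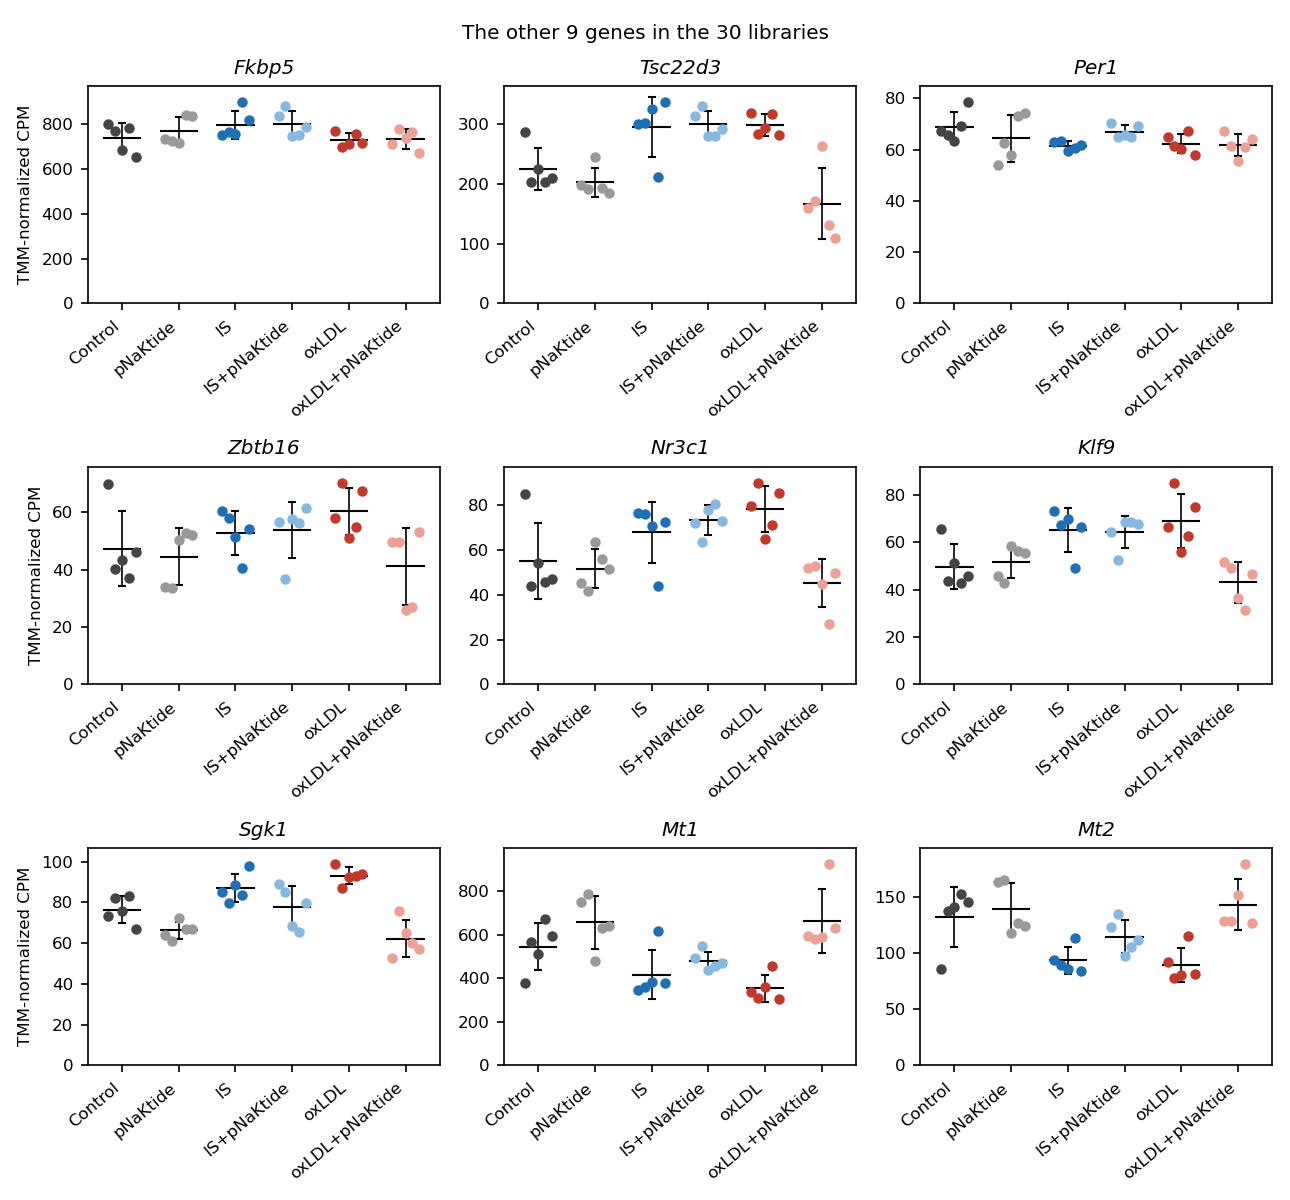
TMM-scaled CPM (y axes, from 0) of the other 9 genes in the 6 groups (x axes), with 1 point for each library, the mean as a line and the SD as a bar. The oxLDL + pNaKtide libraries lie below all oxLDL libraries for Tsc22d3, Nr3c1, Klf9 and Sgk1 and above all of them for Mt1 and Mt2, while the groups overlap for Fkbp5, Per1 and Zbtb16. Over all genes 28.4% had groups that did not overlap in this comparison.

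The metallothionein genes Mt1 (chr8:94179082-94180327) and Mt2 (chr8:94172664-94173568) lie side by side and encode small cysteine-rich proteins that bind zinc and scavenge oxidants. Mt1 was at 379.7, 567, 512, 669.8 and 592 CPM in Control and at 336, 310.0, 359.7, 456 and 305 in oxLDL. Control replicate 1 lay within the range of oxLDL and the other 4 Control libraries above it. Mt1 fell by 0.62 in log2 units (SE 0.16, adjusted p = 0.00972). With pNaKtide in oxLDL cells Mt1 was at 592, 580.0, 589.7, 923 and 632, above every oxLDL library, a rise of 0.91 (SE 0.16, adjusted p = 6.77e-05) or 1.88-fold. Replicate 4 of that group, at 923, was far above the others. With the trend out the changes of Mt1 were -0.35 in the first of these comparisons (adjusted p = 0.0164) and 0.52 in the second (adjusted p = 4.26e-05). Mt2 was at 85.8, 137, 141, 152 and 146 in Control, 92.2, 77.7, 80.5, 115 and 81.8 in oxLDL and 129, 128, 152, 179 and 127 in oxLDL + pNaKtide. As for Mt1, only Control replicate 1 lay within the range of oxLDL. Mt2 fell by 0.57 (SE 0.14, adjusted p = 0.00833) with oxLDL and rose by 0.68 (SE 0.14, adjusted p = 0.000251) when pNaKtide was added. Both calls of Mt2 ended with the trend out, at -0.11 (adjusted p = 0.416) and -0.0031 (adjusted p = 0.985).

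Mt2 was the 1 member lower in IS against Control, where 3.49% of all genes were lower. Its IS libraries were at 93.5, 89.5, 86.3, 114 and 84.4 CPM, of which replicate 4 was highest, and the log2 fold change was -0.50 (SE 0.14, adjusted p = 0.0623). Leaving out any 1 of 8 of the 10 libraries ended the call, with adjusted p of up to 0.193, and leaving out both Control replicate 1 and IS replicate 4 gave -0.70 (adjusted p = 6.42e-05). Taking out the trend ended it too, with -0.18 (adjusted p = 0.23). For Mt1, the IS libraries were at 347, 361, 381, 617 and 378, and the change of -0.39 (adjusted p = 0.143) was -0.49 without Control replicate 1 (adjusted p = 0.0256) and -0.57 without IS replicate 4 (adjusted p = 0.00703), and -0.22 (adjusted p = 0.17) with the trend out. With both left out, 6 of 9 tested members were called in IS against Control in place of 2, the 4 others being Tsc22d3, Nr3c1, Zbtb16 and Mt1, while the share of all genes called there was 45.4% in place of 7.94%.

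Between the groups given pNaKtide, IS + pNaKtide had less Mt1 (492, 546, 437, 458 and 471 CPM) than every oxLDL + pNaKtide library, with a log2 change of -0.46 (SE 0.16, adjusted p = 0.0316). Without oxLDL + pNaKtide replicate 4 the value was -0.32 (adjusted p = 0.149). For Mt2, at 123, 134, 97.1, 106 and 111, it was -0.32 (SE 0.14, adjusted p = 0.0805), a call that ended without any 1 of 5 libraries, replicates 3, 4 and 5 of IS + pNaKtide and replicates 3 and 4 of oxLDL + pNaKtide, with adjusted p of up to 0.241. In all, 4 of 10 members were higher and 3 lower in IS + pNaKtide against oxLDL + pNaKtide, beside 18.5% and 15.5% of all genes. The groups did not overlap for 4 of the 10, as for 19.5% of all genes. With library size alone 7 were higher and 0 lower, a scaling under which the median of all genes in this comparison was 0.22 instead of 0.05. With the trend out 5 were higher and 0 lower. The shares of all genes called in either direction were 34%, 39.2% and 25.5% in these 3 fits. Without oxLDL + pNaKtide replicate 4, where 22.4% of all genes were called, 4 were higher and 1 lower. Mt1 and Mt2 are close copies and share near-identical stretches, so reads of one can be counted for the other. An antisense gene, Gm45774, overlaps Mt2 and held 479 reads beside 39751 for Mt2, and whether the counting used strand is not given in the sources used here.

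With pNaKtide alone none of the 10 was called against Control by edgeR, DESeq2 or limma, and 1, Sgk1, had an unadjusted p under 0.05. Of all genes edgeR called 1, 0.00497%, with 1233 at an unadjusted p under 0.05, while DESeq2 called 57 and limma 4. The members' log2 fold changes ran from -0.20 for Sgk1 (95% interval -0.39 to -0.01) to 0.27 for Mt1 (interval -0.06 to 0.60). None of 9 tested members was called in IS + pNaKtide against IS by the 3 tools either, with Mt2 at an unadjusted p under 0.05. Of all genes 0% passed the threshold in that comparison, although 564 had an unadjusted p under 0.05, DESeq2 called 14 and limma 3. In IS + pNaKtide against Control edgeR called no member of the 10 and 0.358% of all genes, and limma called no member either. DESeq2 called Rasd1, Tsc22d3 and Klf9, beside 7.38% of all genes, and 4 members had an unadjusted p under 0.05, beside 20% of all genes. Without Control replicate 1 and IS replicate 4, edgeR called 5, which were Rasd1, Tsc22d3, Nr3c1, Klf9 and Mt2, and 32.4% of all genes.

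Whether pNaKtide changed the genes more in oxLDL cells than in control cells was tested as a difference of the 2 changes. It was past the threshold for 6 of 9 members, 2 with a positive difference, where 12.8% of all genes had one, and 4 with a negative one, where 11.8% had one. The differences were -0.74 for Klf9 (SE 0.19, adjusted p = 0.0246), -0.68 for Tsc22d3 (SE 0.21, adjusted p = 0.0362) and 0.60 for Mt2 (SE 0.19, adjusted p = 0.0401). Those of Nr3c1 (-0.69, adjusted p = 0.0528), Sgk1 (-0.38, adjusted p = 0.0513) and Mt1 (0.64, adjusted p = 0.0561) lay near the threshold, and leaving out pNaKtide replicate 3 ended all 3 calls (adjusted p = 0.135, 0.119 and 0.124). Leaving out Control replicate 2 (adjusted p = 0.107), Control replicate 4 (0.107) or oxLDL + pNaKtide replicate 4 (0.12) also ended the call of Nr3c1, and leaving out Control replicate 5 (0.101) that of Sgk1. For Mt1 the other such libraries were Control replicate 4, oxLDL replicates 2 and 5 and oxLDL + pNaKtide replicate 4, with adjusted p of 0.103 to 0.14. The share of all genes with a called difference was 10.5% without pNaKtide replicate 3 and 12.5% without oxLDL + pNaKtide replicate 4, in place of 24.6%. Taking the trend out left 3 of the 9 with a called difference, Tsc22d3, Klf9 and Sgk1, where 12.1% of all genes were called in place of 24.6%, while Nr3c1 had -0.12 (adjusted p = 0.461) and Mt2 0.03 (adjusted p = 0.898). The same difference for IS was past the threshold for none of 9 members by edgeR, DESeq2 or limma, with 0 at an unadjusted p under 0.05, and for 0% of all genes, of which 619 had an unadjusted p under 0.05.

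The libraries differed in how counts ran over the GC content of genes. The slope of centred log2 CPM per 10 points of GC had a median of 0.23 in Control, 0.22 with pNaKtide, -0.24 with IS, -0.09 with IS + pNaKtide, -0.28 with oxLDL and 0.16 with oxLDL + pNaKtide. Control replicate 1 had -0.15, pNaKtide replicate 3 had -0.14 and IS replicate 4 had 0.24, each opposite in sign to the rest of its group. In oxLDL against Control the members called higher were Nr3c1, Klf9, Tsc22d3 and Sgk1, with 42.2%, 47.5%, 48.3% and 48.6% GC, and those called lower were Mt1 and Mt2, with 52.9% and 55.6%. Those not called were Fkbp5, Zbtb16 and Per1, with 51.6%, 53.6% and 59.4%. The median slope was also negative in IS, where 2 members were called against Control, and in IS + pNaKtide, where none was. When each library's smooth trend over GC content and transcript length was taken out, 4 of 9 members were called in oxLDL against Control in place of 6, where 20.6% of all genes were called in place of 36%, with Nr3c1 (0.04) and Mt2 (-0.11, adjusted p = 0.416) lost. In oxLDL + pNaKtide against oxLDL 6 were called in place of 7, where 36.8% of all genes were called in place of 48.3%, with Nr3c1 and Mt2 (-0.0031, adjusted p = 0.985) lost and Per1 gained. Mt1, Tsc22d3, Klf9 and Sgk1 stayed past the threshold in both comparisons. Of the 10 genes, Nr3c1 has the longest transcript, 6436 bases, and Mt2 the shortest, 511 bases. The parts of GC content and of length in the trend were not tested separately. Between the groups given pNaKtide, Mt1 went to -0.19 (adjusted p = 0.124) and Mt2 to 0.17 (adjusted p = 0.164). Taking out the trend also takes out any change in RNA that follows GC content or length, and these cannot be told apart here.

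**Figure D3:**
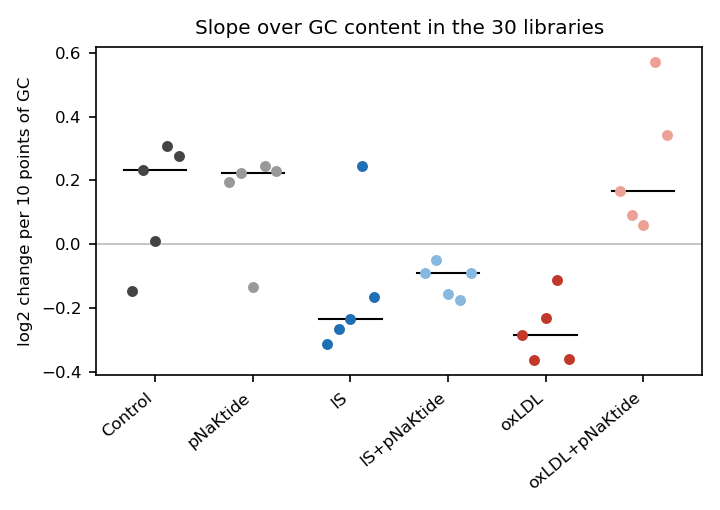
Slope of centred log2 CPM per 10 percentage points of GC content (y axis) in each of the 30 libraries by group (x axis), with the group median as a line. The oxLDL median lies at -0.28 and that of Control at 0.23, with Control replicate 1 at -0.15, pNaKtide replicate 3 at -0.14 and IS replicate 4 at 0.24.

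**Figure D4:**
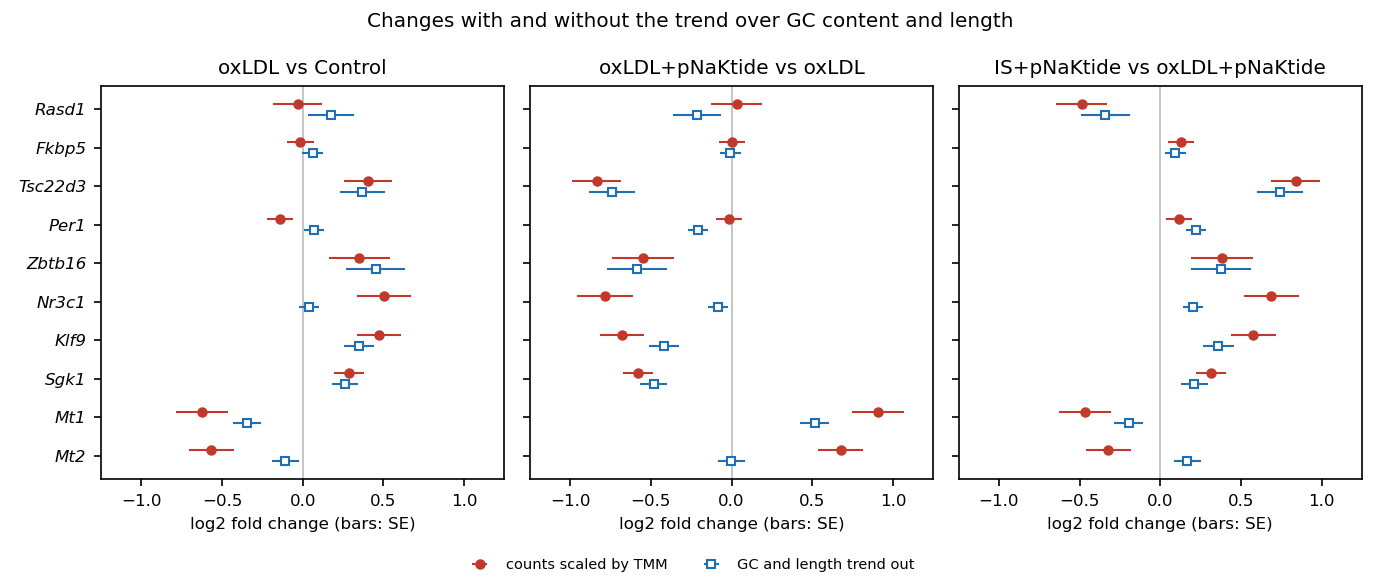
Log2 fold changes of the 10 genes (x axes, bars are SE) in 3 comparisons, from TMM-scaled counts (filled circles) and after removal of the per-library trend over GC content and length (open squares). Nr3c1 goes from 0.50 to 0.04 in oxLDL against Control, while Tsc22d3 goes from 0.40 to 0.37. For Rasd1 the first 2 panels are descriptions.

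The counts of the 5 gene lists that follow are to be read against the shares of all genes called, which in oxLDL against Control were 18.1% higher and 18% lower, in oxLDL + pNaKtide against oxLDL 22.1% and 26.1%, and in IS + pNaKtide against oxLDL + pNaKtide 18.5% and 15.5%. In either direction together, 20.6%, 36.8% and 25.5% of all genes were called in these 3 comparisons with the trend out, and 35.9%, 51.5% and 39.2% with library size alone. The latter scaling moved the median of all genes from 0.04 to 0.17, from -0.09 to -0.30 and from 0.05 to 0.22.

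Genes around the receptor were called in both directions. Of 19 chaperones, hormone-converting enzymes and coregulators, 2 were higher in oxLDL against Control and 6 lower, beside 18.1% and 18% of all genes, with a median of 0.14 beside 0.04 over all genes. The member of each direction with the smallest p-value was Hsp90aa1, the inducible Hsp90 that holds the receptor ready for hormone, at 0.53 (SE 0.11, adjusted p = 0.00702), and Stip1, which hands clients from Hsp70 to Hsp90, at -0.40 (SE 0.10, adjusted p = 0.00919). In oxLDL + pNaKtide against oxLDL 5 were higher, first Stub1, a ubiquitin ligase of chaperone clients (0.64, SE 0.13, adjusted p = 0.000227), and 10 lower, first Hsp90aa1 (-0.78, SE 0.11, adjusted p = 1.22e-05). The list's median was -0.32 there, beside -0.09 over all genes. With the trend out 1 was higher and 5 lower in the first comparison and 5 higher and 5 lower in the second. The list's medians then turned sign, to -0.04 beside 0.03 over all genes and to 0.02 beside -0.04, and Hsp90aa1 kept 0.23 (adjusted p = 0.0244) and -0.37 (adjusted p = 6.50e-05). With library size alone the splits were 4 higher and 4 lower, and 3 higher and 11 lower. In IS against Control 1 was higher and 1 lower, Hsp90aa1 (0.38, adjusted p = 0.0694) and Stip1 (-0.34, adjusted p = 0.0728), where 4.45% and 3.49% of all genes were. With the trend out 0 were higher there, so the call of Hsp90aa1 ended, and 2 were lower, where 5.51% of all genes were called. Without Control replicate 1 and IS replicate 4 5 were higher and 6 lower, where 45.4% of all genes were called.

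Other induced targets were called in both directions with oxLDL. Of 35 such genes 34 were tested, and 4 were higher and 3 lower in oxLDL against Control, beside 18.1% and 18% of all genes, with a median of 0.03 beside 0.04 over all genes. Rgs2, a regulator of G protein signaling, led those higher with 0.35 (SE 0.11, adjusted p = 0.0251, 0.06 with the trend out), and Agt, the angiotensin precursor made by adipocytes, those lower with -0.59 (SE 0.14, adjusted p = 0.00818). With library size alone 10 were higher and 2 lower, and with the trend out 7 and 2. When pNaKtide was added to oxLDL, 3 were higher and 14 lower, beside 22.1% and 26.1% of all genes, with a median of -0.17 beside -0.09. Errfi1, a feedback inhibitor of EGF receptor signaling, was 219 ± 8.01 CPM in oxLDL and 148 ± 17.4 with pNaKtide added, without overlap (-0.57, SE 0.0856, adjusted p = 1.72e-05). It was at 208 ± 6.67 in Control and 167 ± 13.9 with pNaKtide alone. Agt led those higher (0.88, SE 0.14, adjusted p = 3.42e-05), and with the trend out 5 were higher and 15 lower. In IS against Control 4 were higher and 0 lower, beside 4.45% and 3.49% of all genes. First was Pdk4, which shifts fuel use from glucose to fatty acids (0.44, SE 0.11, adjusted p = 0.0473), with 10 higher and 8 lower without Control replicate 1 and IS replicate 4, where 45.4% of all genes were called. In the same comparison 8 were higher and 0 lower with library size alone (12.6% of all genes called), and 3 and 1 with the trend out (5.51%). Between the groups given pNaKtide 12 were higher with IS, first Pdk4 (80.6 ± 3.8 against 45.9 ± 9.06 CPM, 0.80, SE 0.11, adjusted p = 7.40e-05), and 4 lower, first Agt (-0.55, adjusted p = 0.00625), beside 18.5% and 15.5% of all genes. The counts were 19 higher and 2 lower with library size alone, and 13 higher and 6 lower with the trend out.

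Of 17 genes that glucocorticoids repress 16 were tested. In oxLDL against Control 4 were higher and 0 lower, beside 18.1% and 18% of all genes, with a median of 0.28, first the chemokine Cxcl1 (1.19, SE 0.33, adjusted p = 0.0124) at 0.552 ± 0.38 CPM in Control and 1.3 ± 0.219 in oxLDL. With pNaKtide in oxLDL cells 5 were lower and 0 higher, beside 26.1% and 22.1% of all genes, with a median of -0.61, first Vcam1, a leukocyte adhesion molecule (-0.81, SE 0.14, adjusted p = 6.36e-05). With the trend out 2 were higher in the first comparison and 4 lower in the second, with medians of 0.27 and -0.34, and Vcam1 had -0.09 (adjusted p = 0.77). With library size alone the counts were 6 higher and 8 lower.

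The zinc sensor Mtf1 and the zinc transporters Slc30a1, Slc39a10 and Slc39a14 are known, like the metallothioneins, for their part in metal handling. Of 7 such genes these 4 were tested, and all 4 were lower in oxLDL + pNaKtide against oxLDL, where 26.1% of all genes were. Mt1 and Mt2 were higher there, Mt2 not so with the trend out. The smallest p-value was that of Slc39a10, a zinc importer (12.6 ± 2.55 against 7.73 ± 2.4 CPM, -0.68, SE 0.17, adjusted p = 0.00153). All 4 were higher in IS + pNaKtide against oxLDL + pNaKtide, where 18.5% of all genes were, first Slc39a14, another zinc importer (0.40, SE 0.0907, adjusted p = 0.00253). In oxLDL against Control 1 was called, Slc39a10 (0.45, adjusted p = 0.0401). With the trend out 1 of 4 was lower in the first comparison, 2 of 4 higher in the second and 0 called in the third, where library size alone called 3. Slc39a10 then had -0.18 (adjusted p = 0.28) with pNaKtide in oxLDL cells, and Slc39a14 had 0.33 (adjusted p = 0.000379) between the groups given pNaKtide.

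Of 9 close relatives of the members 8 were tested, and 3 were higher and 2 lower in oxLDL against Control, beside 18.1% and 18% of all genes. The split was 3 and 1 with the trend out and 5 and 1 with library size alone. Sgk3, a kinase related to Sgk1, had 4.5 ± 0.977 CPM in Control and 7.66 ± 0.275 in oxLDL, without overlap (0.77, SE 0.21, adjusted p = 0.0124). Fkbp4, the co-chaperone that takes the place of Fkbp5 when hormone binds, was lower (-0.44, SE 0.12, adjusted p = 0.011), while Fkbp5 had -0.02, a difference that was not tested. With pNaKtide in oxLDL cells, where 22.1% of all genes were higher and 26.1% lower, 2 were higher, first Fkbp4 (0.47, SE 0.12, adjusted p = 0.00174), and 4 lower, first Tsc22d2, a relative of Tsc22d3 (-0.81, SE 0.16, adjusted p = 0.000184). There the splits were 1 and 3, and 1 and 5. After removal of the trend Sgk3 had 0.19 in oxLDL against Control (adjusted p = 0.366), Fkbp4 -0.20 (adjusted p = 0.0612) and Tsc22d2 -0.24 with pNaKtide in oxLDL cells (adjusted p = 0.034).

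**Figure D5:**
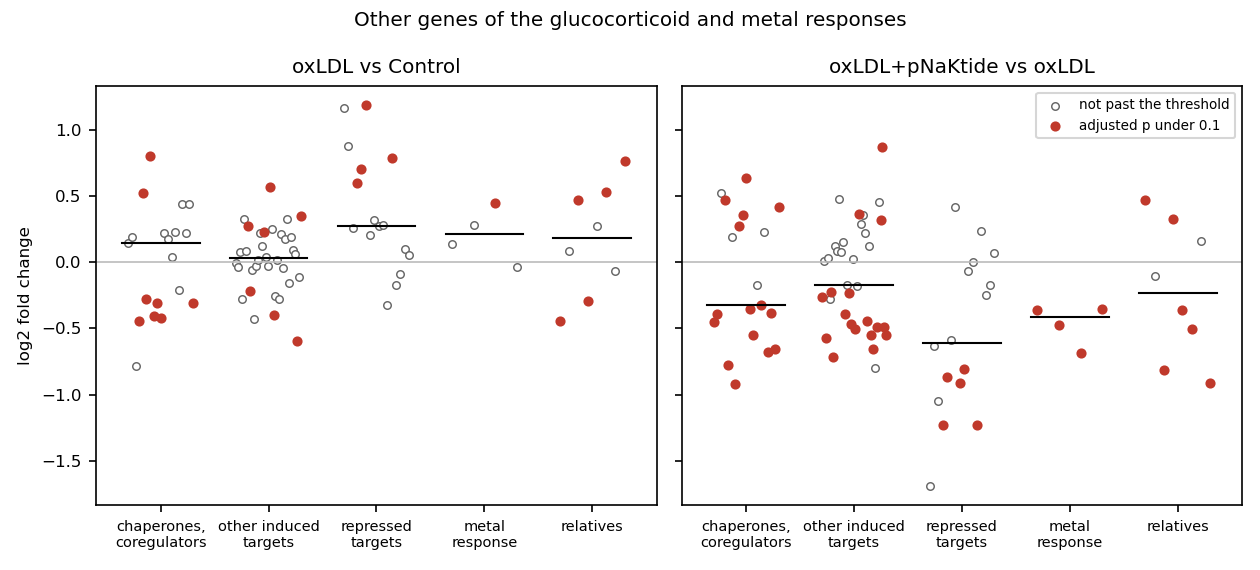
Log2 fold changes (y axis) of the genes of 5 lists (x axis) in oxLDL against Control and in oxLDL + pNaKtide against oxLDL, with 1 point per gene, filled where the adjusted p was under 0.1, and the list's median as a line. All 4 metal response genes lie below 0 in the right panel, and the repressed targets have medians of 0.28 and -0.61, which are 0.27 and -0.34 with the trend out.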

How the data were processed

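RNA from 30 libraries of 3T3-L1 cells (6 groups of 5) was sequenced. Per the labels and the study's processing notes, reads were trimmed with Trimmomatic 0.38 and aligned with HISAT2 2.1.0 to GRCm38, and DESeq2 1.20.0 was used. The counting's strand setting is not given in the sources used here. As their count table, the authors deposited raw read counts per gene (54232 Ensembl genes, 6945498 to 15159877 reads in a library) and FPKM values, which served for levels per length and for a limma alternative on log2(FPKM + 1). Ensembl identifiers were matched to symbols for 54079 genes.

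The 10 genes and all gene lists were chosen with earlier results of these data known. Genes with more than 14 summed counts (20139) were fitted with edgeR 4.0.16 (R 4.3.3, TMM scaling, robust quasi-likelihood, 1 mean for each of 6 groups), tested two-sided and adjusted by Benjamini-Hochberg, with a threshold of 0.1. Shares of counts printed as CPM use TMM-scaled library sizes. The spread between libraries of a group, estimated as 1 value common to all genes (biological coefficient of variation), was 14.0%, and intervals cover 95%. The trend of each library over GC content and transcript length was estimated with mgcv 1.9.3 and used as an offset. All 10 genes were named, from each list the counts and, in each direction, the called gene with the smallest adjusted p, and for Rasd1 the 5 closest genes among those averaging at least 1 in log2 CPM. Libraries of 1 group did not repeat each other: over 60 pairs the lowest chi-square per degree of freedom was 1.28. The alternatives were other scalings, filters and tools (DESeq2 1.42.0, limma 3.58.1), a replicate block, the trend taken out, and libraries left out. Those on the listed genes were chosen after seeing the data. The scripts were tested on simulated data.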

Additional observations from a re-analysis of the deposited data

Results flagged for a closer look

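In 10 of 60 sets of 5 libraries, 1 set for each gene and group, 1 library lay far from the other 4 by Dixon's test, where chance gives about 1 in 20 for a single set. The 60 sets draw on the same 30 libraries and are not independent, and the rate over all genes was not computed. The count is thus not read as a trait of these genes. IS replicate 4 was the library that lay apart for 4 genes, with 211 CPM of Tsc22d3, 44.0 of Nr3c1, 49.1 of Klf9 and 617 of Mt1. For oxLDL + pNaKtide replicate 4 the values were 27.1 CPM of Nr3c1 and 923 of Mt1. For IS + pNaKtide replicate 2 they were 36.8 CPM of Zbtb16 and 52.6 of Klf9. Control replicate 1 had 85.8 CPM of Mt2, and pNaKtide replicate 3 had 246 of Tsc22d3.

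The change with pNaKtide differed between oxLDL cells and control cells, by the test of the difference itself, for 6 genes. On the log2 scale the difference was -0.68 for Tsc22d3, -0.69 for Nr3c1, -0.74 for Klf9 and -0.38 for Sgk1, and 0.64 for Mt1 and 0.60 for Mt2. Of all genes 12.8% had a called positive difference and 11.8% a negative one. With the trend over GC content and length out, Nr3c1 (-0.12, adjusted p = 0.461), Mt1 (0.32, adjusted p = 0.114) and Mt2 (0.03, adjusted p = 0.898) did not pass the threshold of edgeR's test.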

How the results depend on the processing

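The calls in oxLDL against Control, in oxLDL + pNaKtide against oxLDL and between the groups given pNaKtide stayed within 1.5 times their number under every alternative, and those of pNaKtide against Control, IS + pNaKtide against IS and the IS difference stayed at 0. Of the values for single genes under the alternatives, 2019 kept direction and side of the threshold, 101 turned sign without passing the threshold in either fit, 69 lost the call, 56 gained one and 3 turned sign with a call in at least 1 of the fits. Among the 101 was Nr3c1 in IS against Control with the trend out (-0.02). The 3 were Fkbp5 in oxLDL + pNaKtide against oxLDL with library size alone (-0.22), and Mt2 with the trend out in that comparison (-0.0031) and in IS + pNaKtide against oxLDL + pNaKtide (0.17).

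In brackets is the share of all genes called by the same fit. IS against Control called 2 members (7.94%). The count was 0 at a threshold of 0.05 (0.646%), 5 with library size alone (12.6%), of which 4 were higher, 4 with DESeq2 (15.7%), 1 with a filter of at least 1 count (1.86%), 1 with the trend out (5.51%), 6 without both Control replicate 1 and IS replicate 4 (45.4%), 0 with only the groups compared (0%) and 0 to 5 with 1 library left out (0.0745% to 34.5%). IS + pNaKtide against Control called 0 members (0.358%), but 3 with DESeq2 (7.38%), 5 without both libraries (32.4%), 2 with only the groups compared (5.72%) and 0 to 5 with 1 library left out (0.00993% to 26.7%). oxLDL + pNaKtide against Control called 1 (5.2%), but 0 at 0.05 (2.93%), 0 with DESeq2 size factors (5.17%), 3 with library size alone (9.77%), 2 with DESeq2 (9.04%), 2 with over 14 counts in every library (14.4%), 0 with at least 1 count (2.24%), 0 with the trend out (9.58%), 0 with only the groups compared (0.0547%), 2 with limma on FPKM (12%) and 0 to 2 with 1 library left out (2.51% to 6.46%). The oxLDL difference called 6 (24.6%), but 3 at 0.05 (13.4%), 3 with the trend out (12.1%) and 3 to 7 with 1 library left out (10.5% to 37.3%), the 3 without pNaKtide replicate 3 (10.5%). Apart from these constructions, the causes were not tested. Over all genes, IS against Control called 1599 with edgeR, 9140 with edgeR without both libraries and 3160 with DESeq2. For IS + pNaKtide against Control these counts were 72, 6517 and 1486. For oxLDL + pNaKtide against Control edgeR called 1047 and DESeq2 1821.

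Whether replicate numbers pair the samples was not settled. Deviations of same-numbered libraries correlated at over 0.1 in 1 to 4 of 5 pairs, depending on the comparison. Single pairs ran from -0.66 (pNaKtide against Control) to 0.74 (IS against Control). With a replicate block, 4 members were called in IS against Control (17%), 2 in IS + pNaKtide against Control (6.64%) and 2 in oxLDL + pNaKtide against Control (8.21%). Rasd1 had 28 to 73 reads in a library, so its values carry more counting error than those of the other members.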
